A study of Mus musculus with 12 samples.

Results

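Collagens are the triple-helical proteins of the extracellular matrix, and each gene described here encodes 1 chain of such a helix. The collagen chain genes were taken as every probe whose gene symbol consists of Col, a type number, the letter a and a chain number. The array holds 42 such genes, each with 1 probe, among 19572 probes with a gene symbol (19505 symbols). By type they fall into 11 fibrillar chains (types I, II, III, V, XI, XXIV and XXVII), 6 basement membrane chains (type IV) and 25 other chains.

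Levels were measured with Clariom S Mouse arrays in total RNA of cultured mouse trigeminal ganglion neurons, which sense touch and pain in the face. The cells grew on laminin-coated coverslips and were transfected with miR-21 (3 arrays), miR-34a (3 arrays), miR-324 (3 arrays) or scramble miRNAs (3 arrays), and the study set each miRNA against scramble. Age, sex and strain are not given in the sources used here. Nothing says that arrays of a group come from different cultures or animals, so every p-value rests on the spread of these arrays alone, which may be technical. Labels of miR-34a 1 and 2 and of scramble 1 and 2 share a suffix, called suffix A, and those of miR-324 2 and scramble 3 share another, called suffix B. The other 6 arrays (miR-21 1 to 3, miR-34a 3, miR-324 1 and 4) have none. What the suffixes stand for is not stated. Labels of both suffix B arrays also hold the word mimic, which no other label holds, and whether those arrays were treated differently is not stated.

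A miRNA lowers mRNAs that pair with its seed, bases 2 to 8, printed in capitals below to show what was transfected. The sequences are the mouse mature forms in RefSeq (GRCm38.p6). The labels name no arm, so the 5p arm is shown for miR-21 and miR-34a, and both arms for miR-324. No 2 of these seeds are the same.
mmu-miR-21a-5p: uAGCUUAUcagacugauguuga
mmu-miR-34a-5p: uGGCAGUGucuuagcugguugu
mmu-miR-324-5p: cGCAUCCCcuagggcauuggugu
mmu-miR-324-3p: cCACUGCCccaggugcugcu

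Fibrillar chains assemble into the cross-striated fibres that give a tissue tensile strength, with type V collagen in the core of type I fibres. Type IV chains form the sheet-like network of basement membranes, to which laminin, nidogen and perlecan bind. In a peripheral ganglion the fibrils are made mostly by fibroblasts of the connective tissue and, in part, by Schwann cells, while Schwann cells, satellite glia and vessels lie on basement membranes.

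Values are RMA log2 signals, so a difference of 1 is a 2-fold change, and each difference is taken between arrays for the same probe. Signals of different probes are used together in the floor, in the choice of the brightest genes and in the medians and sums of gene lists. As a floor, the 95th percentile of 1412 olfactory and vomeronasal receptor probes was taken on each array (4.87 to 5.80). Of the 42 collagen genes, 18 lay above it on all 12 arrays, 11 on some arrays and 13 on none. Above the floor on all arrays were 6 of 11 fibrillar, 2 of 6 basement membrane and 10 of 25 other chains. A difference near the floor understates the change in RNA.

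Within the groups the arrays differed in cell type markers. The pan-neuronal list of 14 genes was above the floor on every array, with a median signal of 12.12 to 12.28 on miR-21, 10.05 to 13.94 on miR-34a, 10.44 to 13.09 on miR-324 and 13.23 to 13.90 on scramble arrays. Macrophage markers (13 genes) had medians of 8.64 to 9.20 on the 4 suffix A arrays and of 4.37 to 5.73 on the other 8. Pituitary markers (8 genes) had medians of 5.83 to 6.41 on the 3 miR-324 arrays and scramble 3, and of 3.86 to 4.66 on the other 8.

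After miR-21, Col1a2, Col10a1, Col1a1 and Col5a2 stood highest relative to scramble. Col1a2 and Col5a2 rose (limma, Benjamini-Hochberg adjusted p under 0.05 over all 19572 probes), which is 2 of the 42 collagen genes against 0.685% of all probes called higher. No collagen gene fell, against 0.358% of all probes. The means of 39 of the 42 genes were above those of scramble, against 61.6% of all probes, with a median difference of 0.50 on the log2 scale against 0.13 over all probes. By class the median difference was 1.08 for fibrillar, 0.52 for basement membrane and 0.44 for other chains. For 20 of the 42 genes all miR-21 arrays lay above all scramble arrays (8 fibrillar, 3 basement membrane and 9 others), against 16.9% of all probes, and for none did they all lie below, against 8.75%. An unadjusted p under 0.05 was found for 18 of the 42, against 16.6% of all probes. These counts and medians include the 13 genes above the floor on no array. Among the 20 were Col4a3, Col5a3, Col6a6 and Col26a1, which were above the floor on no miR-21 or scramble array. The floor itself was 5.36, 5.80 and 5.12 on the miR-21 arrays and 5.00, 4.97 and 5.24 on the scramble arrays. Its part in these counts was not tested.

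**Figure D1:**
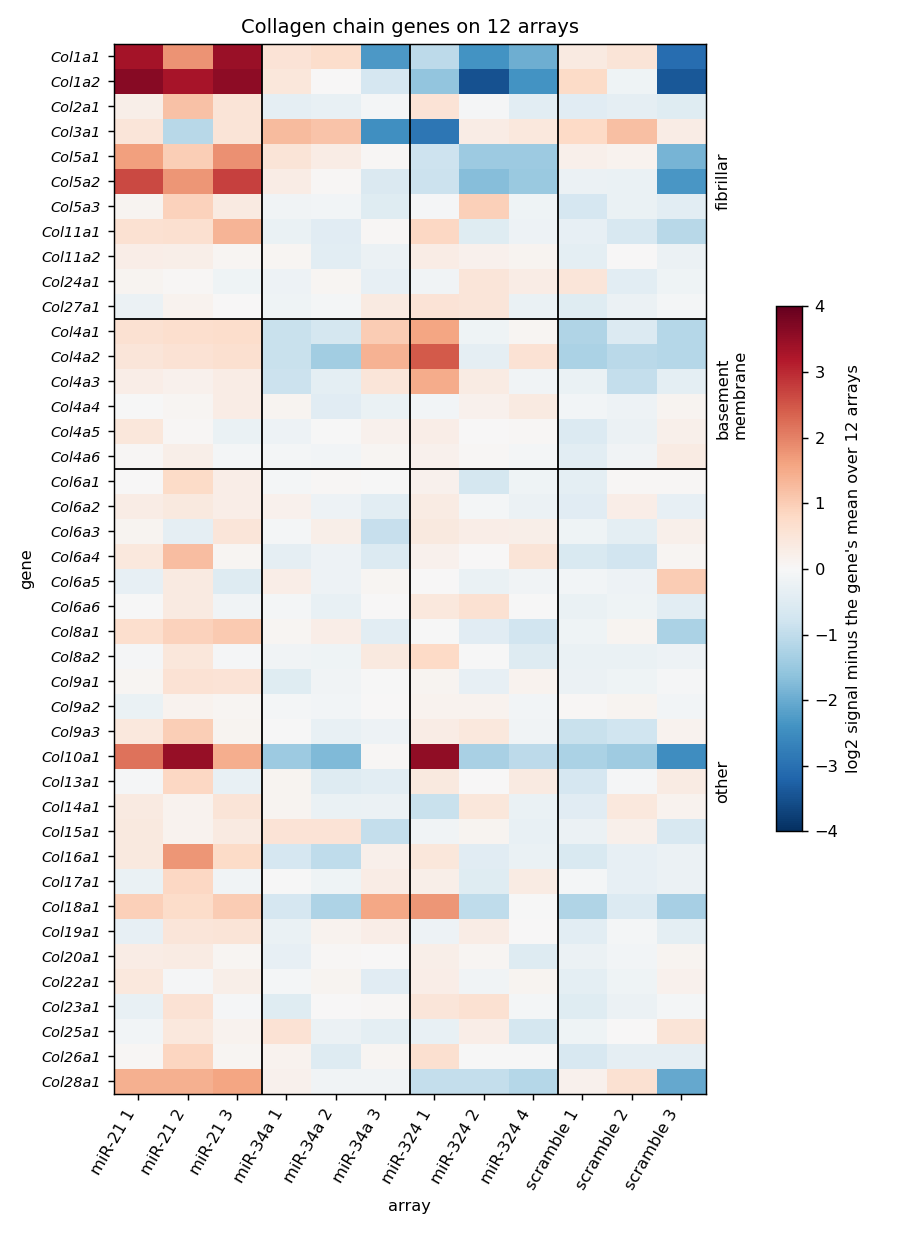
Log2 signal of the 42 collagen chain genes (rows, by class) on the 12 arrays (columns), each minus the gene's mean over the 12 arrays, with red for above and blue for below that mean. Col1a1, Col1a2 and Col5a2 are red on the miR-21 arrays, and Col4a1, Col4a2 and Col18a1 also on miR-34a 3 and miR-324 1.

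Type I collagen, the main fibrillar collagen of skin, tendon and bone, is built from the products of Col1a1 and Col1a2. Array values are given below in the order 1, 2 and 3, or 1, 2 and 4 for miR-324. Col1a2 (chr6:4505618-4541543, GRCm38.p6) had signals of 15.45, 15.10 and 15.38 on the miR-21 arrays, 12.27, 11.81 and 11.12 on the miR-34a arrays, 10.22, 8.31 and 9.40 on the miR-324 arrays and 12.56, 11.63 and 8.40 on the scramble arrays. The lowest miR-21 array was above the highest of the other 9, and scramble 3 was well below scramble 1 and 2. Col1a2 averaged 15.31 ± 0.19 with miR-21 and 10.86 ± 2.18 with scramble (SD, n = 3 each), a difference of 4.45 ± 0.83 (SE; 21.8-fold; limma adjusted p = 0.0291). In the 6 fits that each left out 1 array, the difference ranged over 3.22 to 5.30 and passed only without scramble 1 or scramble 3 (adjusted p = 0.0303 to 0.125).

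Col1a1 (chr11:94936224-94953042), the partner chain, had signals of 13.06, 11.53 and 13.20 with miR-21, 10.29, 10.44 and 7.43 with miR-34a, 8.67, 7.34 and 7.79 with miR-324 and 10.08, 10.26 and 6.70 with scramble. It too lay higher on every miR-21 array than on any other. Its mean was 12.60 ± 0.93 with miR-21 and 9.01 ± 2.01 with scramble (SD, n = 3 each), but the difference of 3.58 ± 0.96 (SE) did not pass (limma adjusted p = 0.0944).

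Type V chains help to start type I fibrils and limit their width. Col5a2 (chr1:45374331-45503282) had signals of 11.84, 10.94 and 11.92 with miR-21, 9.47, 9.22 and 8.61 with miR-34a, 8.33, 7.47 and 7.71 with miR-324 and 8.95, 8.92 and 6.85 with scramble. Again the miR-21 arrays were above the other 9, and scramble 3 was the lowest array of all. The means were 11.57 ± 0.54 with miR-21 and 8.24 ± 1.20 with scramble (SD, n = 3 each), a rise of 3.33 ± 0.51 (SE; limma adjusted p = 0.016). With 1 array left out the difference was 2.63 to 3.68, and it did not pass without miR-21 1 or miR-21 3 (highest adjusted p = 0.0864).

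Col5a1 (chr2:27886381-28039510) was likewise highest after miR-21, with 9.89, 9.24 and 10.10 after miR-21, 8.78, 8.55 and 8.30 after miR-34a, 7.43, 6.80 and 6.80 after miR-324 and 8.48, 8.39 and 6.40 after scramble. Its miR-21 arrays did not overlap with any other array, and the difference from scramble of 1.99 ± 0.47 (SE) did not pass (limma adjusted p = 0.0676). Col5a3, the chain of a less widespread type V form, was above the floor on 1 array only.

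Col3a1 encodes the single chain of type III collagen, which accompanies type I in soft tissues, and it had another pattern. Col3a1 (chr1:45311538-45349706) had signals of 9.89, 8.27 and 9.92 with miR-21, 10.66, 10.52 and 6.95 with miR-34a, 6.50, 9.69 and 9.80 with miR-324 and 10.19, 10.60 and 9.70 with scramble. The 2 lowest arrays were miR-324 1 and miR-34a 3, and the miR-21 arrays overlapped with scramble. The difference between miR-21 and scramble was -0.80 ± 1.00 (SE; 95% interval -2.99 to 1.38; limma adjusted p = 0.718), so this fit could not tell a fall of several fold from a rise.

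**Figure D2:**
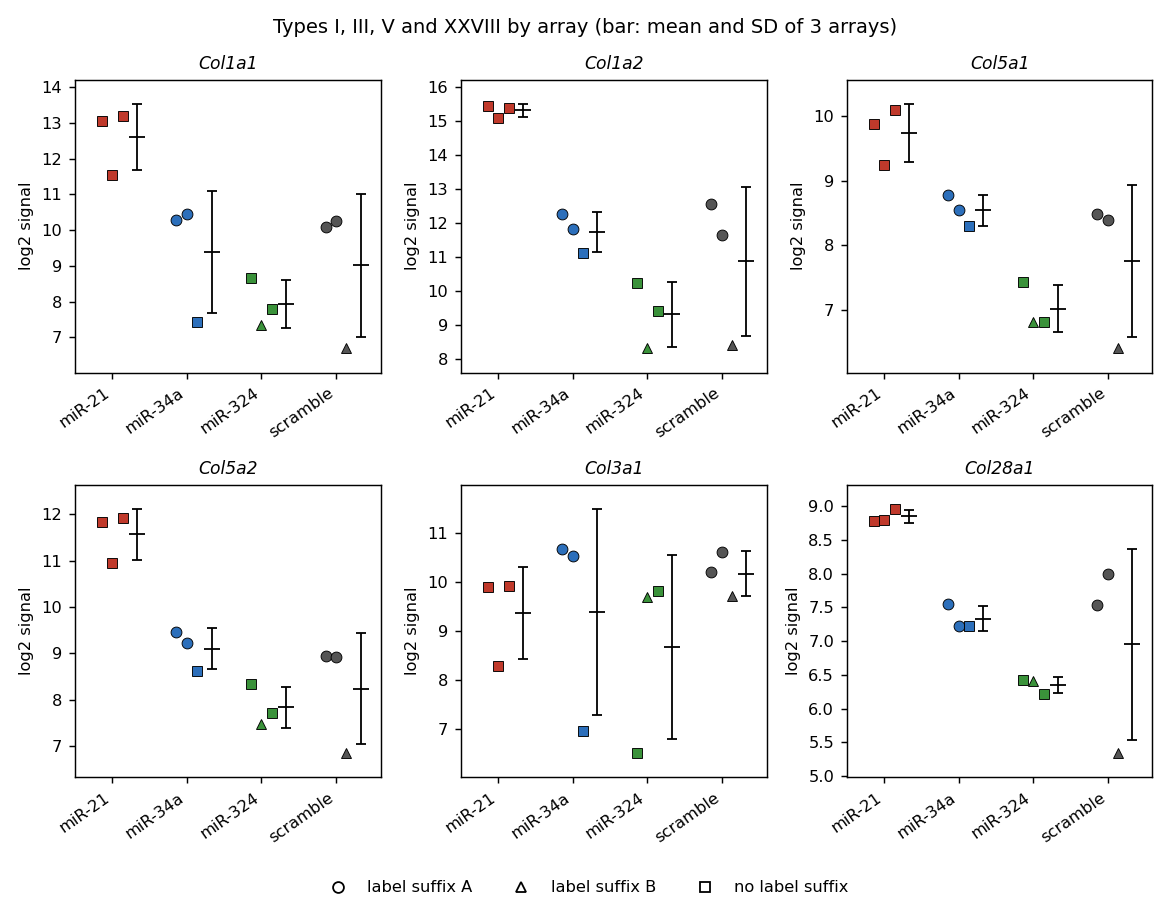
Log2 signal (vertical axis) of 6 collagen genes by group; each symbol is 1 array, its shape gives the label suffix, and the bar beside it is the mean and SD of the 3 arrays. Col1a1, Col1a2, Col5a1, Col5a2 and Col28a1 have their 3 highest arrays in the miR-21 group, and Col3a1 does not.

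The remaining fibrillar chains were close to the floor or varied little. Col11a1, a chain of the cartilage collagen XI that can also join type V, had signals of 6.31, 6.35 and 7.08 with miR-21, 5.45, 5.27 and 5.75 with miR-34a, 6.54, 5.21 and 5.52 with miR-324 and 5.37, 5.06 and 4.60 with scramble. The miR-21 arrays were above the scramble arrays, and the difference of 1.57 ± 0.35 (SE) did not pass (limma adjusted p = 0.0571). Col2a1, the chain of cartilage fibrils, averaged 5.95 ± 0.49 with miR-21 and 4.88 ± 0.06 with scramble (SD, n = 3 each; limma adjusted p = 0.0966). Col11a2 varied between 6.37 and 7.08 over the 12 arrays, and Col24a1 and Col27a1 were above the floor on none.

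The 250 bases before the RefSeq start were compared for short promoter elements, because Col1a2 and Col5a1 were highest on the same arrays and Col3a1 was not. Promoters were found for 34 of the 42 genes, and those of the other 8 (Col1a1, Col2a1, Col4a3, Col5a2, Col9a3, Col14a1, Col22a1 and Col26a1) were not used here. On either strand, the windows were searched for TATAAA, the core of the element bound by the TATA-binding protein. They were also searched for CCAAT, which the factor NF-Y binds. The further motifs were GGGCGG, the box bound by Sp1 factors, TGANTCA, the element of the Fos and Jun proteins, and CAGACA, an element of SMAD proteins. Capitals mark the matches on either strand in the windows of Col1a2 (chr6:4505368-4505617, plus strand), Col3a1 (chr1:45311288-45311537, plus strand) and Col5a1 (chr2:27886175-27886424, plus strand), from RefSeq (GRCm38.p6). The Col5a1 start used for its window lies 44 bases inside the gene's annotated span.
Col1a2: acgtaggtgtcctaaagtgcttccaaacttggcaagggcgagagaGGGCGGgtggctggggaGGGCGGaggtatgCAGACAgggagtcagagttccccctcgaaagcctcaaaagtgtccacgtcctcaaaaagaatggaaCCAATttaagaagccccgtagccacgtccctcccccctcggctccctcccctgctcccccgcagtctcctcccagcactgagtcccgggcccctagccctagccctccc
Col3a1: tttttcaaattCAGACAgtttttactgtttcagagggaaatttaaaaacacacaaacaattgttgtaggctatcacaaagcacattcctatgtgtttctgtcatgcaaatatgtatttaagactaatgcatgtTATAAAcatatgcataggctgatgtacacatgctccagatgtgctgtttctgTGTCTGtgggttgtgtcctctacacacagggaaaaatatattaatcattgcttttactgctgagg
Col5a1: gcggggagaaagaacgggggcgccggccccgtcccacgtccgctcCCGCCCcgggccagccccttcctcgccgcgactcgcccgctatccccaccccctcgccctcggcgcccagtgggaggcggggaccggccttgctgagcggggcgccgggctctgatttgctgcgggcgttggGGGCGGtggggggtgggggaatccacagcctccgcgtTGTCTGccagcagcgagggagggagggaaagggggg

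All 3 windows held CAGACA, and Col1a2 and Col5a1 also held GGGCGG, which the Col3a1 window did not, while Col3a1 alone of the 3 held TATAAA. Over the 34 members GGGCGG was in 20 windows (6 of 8 fibrillar, 3 of 5 basement membrane and 11 of 21 other chains), against 35.4% of 27025 RefSeq genes. CAGACA was in 8 of 34 (3 of 8, 0 of 5 and 5 of 21), against 19.3%. TATAAA was in 5 of 34 against 14.3%, CCAAT in 12 of 34 against 37.5% and TGANTCA in 1 of 34 against 7.82%. A match describes the letters of these windows only.

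The type IV chains showed a different order of arrays. Col4a1 and Col4a2, whose products form the network found in nearly all basement membranes, are transcribed in opposite directions from chromosome 8. Col4a1 spans chr8:11198423-11312889 and Col4a2 chr8:11312805-11449287 (GRCm38.p6), so the annotated spans share 85 bases. The RefSeq starts used here are 21 bases apart, and that of Col4a1 lies inside its annotated span. Col4a1 is read towards lower and Col4a2 towards higher coordinates, so the stretch between these starts lies within both transcripts. It is printed below (chr8:11312805-11312826, plus strand, RefSeq).
Col4a2 start to Col4a1 start: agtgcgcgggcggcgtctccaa

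Col4a1 had signals of 9.19, 9.24 and 9.27 with miR-21, 7.69, 7.89 and 9.58 with miR-34a, 10.14, 8.42 and 8.67 with miR-324 and 7.37, 8.04 and 7.43 with scramble. Col4a2 had 10.90, 10.99 and 11.06 with miR-21, 9.52, 9.01 and 11.80 with miR-34a, 12.87, 10.05 and 10.98 with miR-324 and 9.13, 9.34 and 9.26 with scramble. Both genes were highest on miR-324 1 and next on miR-34a 3, and all 6 arrays without a label suffix were above the 6 with one. Against scramble, miR-21 differed by 1.62 ± 0.51 (SE) in Col4a1 (limma adjusted p = 0.141) and by 1.74 ± 0.70 in Col4a2 (limma adjusted p = 0.244), with no overlap of the groups. miR-324 differed from scramble by 1.46 ± 0.51 in Col4a1 and 2.06 ± 0.70 in Col4a2 (SE; limma adjusted p = 0.309 for each), also with no overlap.

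The other type IV chains, which serve the basement membranes of kidney, lung and a few other sites, were at or near the floor. Col4a3 and Col4a4 lie head to head on chromosome 1, and their spans share 114 bases. Col4a3 had signals of 5.00, 4.90 and 5.04 with miR-21, 3.89, 4.36 and 5.22 with miR-34a, 6.21, 5.07 and 4.59 with miR-324 and 4.47, 3.79 and 4.34 with scramble. Only miR-324 1 was above the floor of its array. Col4a4 stayed between 4.29 and 5.10, with 4.72, 4.82 and 5.03 after miR-21, 4.85, 4.29 and 4.46 after miR-34a, 4.63, 4.92 and 5.10 after miR-324 and 4.63, 4.52 and 4.86 after scramble. Col4a5 and Col4a6, 1274 bases apart on chromosome X, were not above the floor on any array. Col4a5 had signals of 2.95 to 3.65 with miR-21, 3.00 to 3.39 with miR-34a, 3.22 to 3.46 with miR-324 and 2.67 to 3.42 with scramble. For Col4a6 they were 4.43 to 4.74 with miR-21, 4.40 to 4.58 with miR-34a, 4.44 to 4.68 with miR-324 and 4.10 to 4.84 with scramble.

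**Figure D3:**
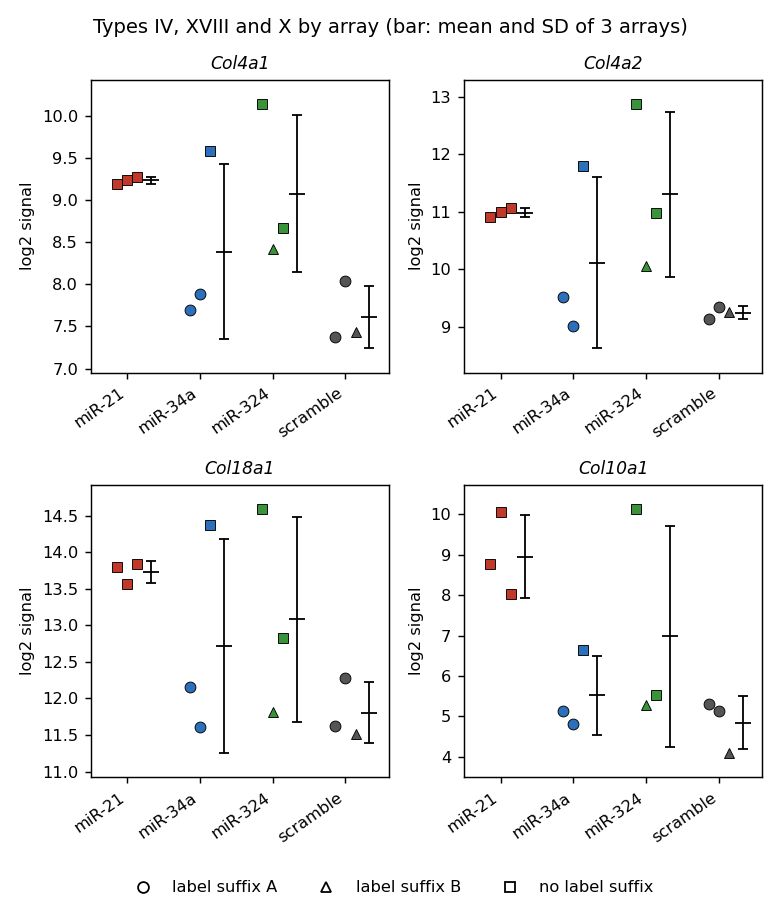
Log2 signal (vertical axis) of Col4a1, Col4a2, Col18a1 and Col10a1 by group; each symbol is 1 array, its shape gives the label suffix, and the bar beside it is the mean and SD of the 3 arrays. In each gene the squares, arrays without a label suffix, lie above all circles and triangles.

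Among the other chains, Col18a1 and Col10a1 had the same split by suffix. Col18a1 (chr10:77052178-77166530) encodes collagen XVIII, a heparan sulfate proteoglycan of basement membranes whose end fragment is endostatin. It had signals of 13.80, 13.56 and 13.84 with miR-21, 12.16, 11.61 and 14.37 with miR-34a, 14.59, 11.82 and 12.83 with miR-324 and 11.62, 12.28 and 11.52 with scramble. The 6 arrays without a suffix were again above the rest, and the difference between miR-21 and scramble of 1.93 ± 0.70 (SE) did not pass (limma adjusted p = 0.2).

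Col10a1 encodes collagen X, known from hypertrophic cartilage, and lies within the span of Nt5dc1 on chromosome 10 (34389981 to 34397085). It had signals of 8.76, 10.06 and 8.04 with miR-21, 5.13, 4.80 and 6.63 with miR-34a, 10.13, 5.29 and 5.52 with miR-324 and 5.30, 5.14 and 4.09 with scramble. miR-324 1 was as high as the highest miR-21 array. Between miR-21 and scramble the difference was 4.11 ± 1.05 (SE), and it did not pass (limma adjusted p = 0.0816). Nt5dc1 itself differed by 0.02 ± 0.33 (SE; limma adjusted p = 0.978). Of 10 chondrocyte markers, 5 (Matn1, Matn3, Comp, Chad and Cnmd) were above the floor on no array. None of the 10 rose with miR-21 and Epyc fell by 2.39 on the log2 scale (limma adjusted p = 0.028), while 8 of the 10 means were higher (median 0.19). The summed signal of the list, which its brightest probes such as Sox9 weight most, was 10.91 to 11.37 on miR-21 arrays and 11.71 to 12.45 on scramble arrays (log2).

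Col28a1 (chr6:7997100-8193709) encodes collagen XXVIII, which in mouse peripheral nerve is found around Schwann cells. It had signals of 8.79, 8.80 and 8.96 with miR-21, 7.55, 7.23 and 7.22 with miR-34a, 6.43, 6.41 and 6.22 with miR-324 and 7.53, 7.99 and 5.34 with scramble. The miR-21 arrays were above all others and scramble 3 was the lowest, as in Col1a1, Col5a1 and Col5a2. Its means were 8.85 ± 0.10 with miR-21 and 6.95 ± 1.42 with scramble (SD, n = 3 each), and the difference of 1.90 ± 0.50 (SE) did not pass (limma adjusted p = 0.0918). The RefSeq start used for its window lies 1092 bases inside the annotated span, so the annotated gene extends upstream of it. The 250 bases before the start used (chr6:8192618-8192867, minus strand) are shown for comparison with the fibrillar windows above, and of the 5 elements they held CAGACA alone, in capitals.
Col28a1: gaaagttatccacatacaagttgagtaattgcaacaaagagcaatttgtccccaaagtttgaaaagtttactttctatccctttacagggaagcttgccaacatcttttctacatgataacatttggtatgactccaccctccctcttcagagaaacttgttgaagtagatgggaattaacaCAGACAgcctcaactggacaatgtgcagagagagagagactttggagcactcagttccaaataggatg

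Col8a1, a chain of the network-forming collagen VIII of vessel walls and corneal endothelium, was also highest on the miR-21 arrays. It had 8.09, 8.36 and 8.48 with miR-21, 7.52, 7.68 and 7.00 with miR-34a, 7.42, 6.96 and 6.65 with miR-324 and 7.27, 7.55 and 6.15 with scramble, a difference from scramble of 1.32 ± 0.35 (SE; limma adjusted p = 0.0924). Col16a1, a chain that sits on the surface of fibrils, had signals of 8.65, 10.01 and 9.01 with miR-21, 7.58, 7.22 and 8.44 with miR-34a, 8.71, 7.80 and 7.97 with miR-324 and 7.64, 7.93 and 8.01 with scramble. miR-21 2 was its highest array, and the difference of 1.36 ± 0.39 (SE) did not pass (limma adjusted p = 0.117).

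Type VI collagen forms beaded filaments next to basement membranes, and its chains differed little. Col6a3 had signals of 9.57, 9.10 and 9.96 with miR-21, 9.39, 9.71 and 8.54 with miR-34a, 9.85, 9.74 and 9.71 with miR-324 and 9.28, 9.08 and 9.67 with scramble. Its difference between miR-21 and scramble was 0.20 ± 0.32 (SE; 95% interval -0.49 to 0.89). Col6a1 ranged over 5.80 to 7.27 and Col6a2 over 6.40 to 7.26 on the 12 arrays, while Col6a4 and Col6a6 were above the floor on none. Col6a5 was above it only on scramble 3, with 4.12, 4.79 and 3.94 after miR-21, 4.69, 4.23 and 4.52 after miR-34a, 4.45, 4.17 and 4.31 after miR-324 and 4.34, 4.25 and 5.47 after scramble.

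The other chains included the collagen IX, XIII, XX and XV genes. Col9a3, a chain of the fibril-associated collagen IX, had 7.32, 7.88 and 7.01 with miR-21 and 6.00, 6.11 and 7.05 with scramble, and did not pass (difference 1.02 ± 0.32, SE; limma adjusted p = 0.14). Col13a1, a transmembrane collagen, varied between 6.22 and 7.72, and Col20a1 between 6.36 and 7.19. Col15a1, a basement membrane collagen related to Col18a1, was above the floor on 8 arrays and reached at most 6.24. Col8a2, the partner chain of Col8a1, was above it on 11 arrays, the transmembrane chain Col23a1 on 7, Col22a1 on 5, and Col9a1 on 1. Col9a2, Col14a1, Col17a1, Col19a1, Col25a1 and Col26a1 were above it on none.

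Both orders of arrays were counted over all probes after they had been seen in the members, so they carry no test. All 3 miR-21 arrays lay above the other 9 in 6 of 42 collagen genes (Col1a1, Col1a2, Col5a1, Col5a2, Col8a1 and Col28a1), against 3.37% of all probes. All 6 arrays without a suffix lay above the other 6 in another 6 (Col4a1, Col4a2, Col9a1, Col10a1, Col11a1 and Col18a1), against 2.46% of all probes. No array with a suffix belongs to miR-21 and none without one to scramble, so the label suffix and the miR-21 comparison overlap in full. A block for suffix in the fit therefore takes the offset between arrays with and without a suffix from the miR-34a and miR-324 groups, which have both kinds. In each of these groups a single array stands on one side, miR-34a 3 without a suffix and miR-324 2 with one. The blocked differences and their p-values depend on these single arrays. The pan-neuronal median was 10.05 on miR-34a 3 and 13.94 and 13.47 on miR-34a 1 and 2, so that array also differed in cell type markers.

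In a fit that blocked on suffix, 8 collagen genes were higher with miR-21 than with scramble (limma adjusted p under 0.05), against 3.49% of all probes called in either direction. They were Col1a1, Col1a2, Col5a1, Col5a2, Col8a1 and Col28a1, and also Col5a3 and Col15a1, which were not above the floor on every array. The difference was 5.20 for Col1a1 (limma adjusted p = 0.000233), 4.70 for Col1a2 (adjusted p = 0.000121), 3.72 for Col5a2 (adjusted p = 0.000339), 2.28 for Col5a1 (adjusted p = 0.0105) and 2.30 for Col28a1 (adjusted p = 0.0178). Type IV went to values near 0 or below, with 0.22 for Col4a1 and -0.50 for Col4a2, and Col18a1 to -0.25. The class median was 1.60 for fibrillar and -0.01 for basement membrane chains. Col10a1 differed by 2.18 (limma adjusted p = 0.505), and Col3a1 by 1.98 (0.413), which is the opposite sign to the fit without the block.

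**Figure D4:**
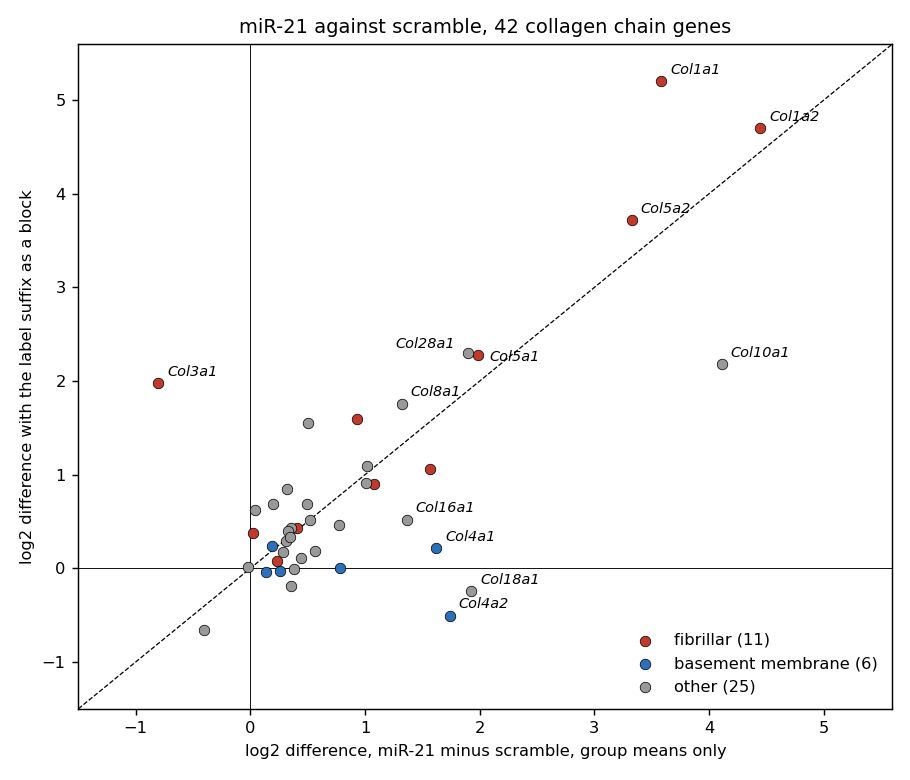
Log2 difference between miR-21 and scramble for the 42 collagen genes, from the fit on group means (horizontal axis) and from the fit that blocked on label suffix (vertical axis); the dashed line marks equal values. Type I and V chains lie on or above the line, whereas Col4a1, Col4a2, Col18a1 and Col10a1 lie below it.

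Neither miR-34a nor miR-324 moved a collagen gene past the threshold against scramble. These comparisons and that of miR-21 share the scramble arrays. With miR-34a 0 of 42 genes were called (0% of all probes), no member had an unadjusted p under 0.05 (against 1.46% of all probes), and the smallest adjusted p of a member was 0.999. The groups did not overlap in 2 of the 42, Col2a1 and Col8a2, both higher, against 3.49% of all probes. Median differences were 0.30 for fibrillar, 0.23 for basement membrane and 0.08 for other chains, against 0.04 over all probes. Col1a2 differed by 0.87 ± 0.83 (SE; 95% interval -0.93 to 2.67) and Col5a2 by 0.86 ± 0.51 (SE; -0.25 to 1.97). Among suffix A arrays only (2 miR-34a and 2 scramble), no collagen gene passed (0% of all probes), and the 42 differences lay between -0.39 and 0.70.

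With miR-324 0 of 42 genes were called (0% of all probes), 6 had an unadjusted p under 0.05 (against 14.7% of all probes), and for 8 all miR-324 arrays were above all scramble arrays, against 12.6% of all probes. Median differences were 0.24 for fibrillar, 0.69 for basement membrane and 0.24 for other chains, against 0.09 over all probes. Col1a2 differed by -1.55 ± 0.83 (SE; limma adjusted p = 0.385) and Col28a1 by -0.60 ± 0.50 (SE; 0.572). Scramble 3 was the lowest scramble array in Col1a1, Col1a2, Col5a1, Col5a2 and Col28a1. Without it Col1a2 (-2.79), Col5a1 (-1.43) and Col28a1 (-1.41) were called lower (limma adjusted p = 0.0332, 0.0465 and 0.0285), against 1.96% of all probes called in either direction. That fit sets miR-324 against scramble 1 and 2, which have suffix A, and no miR-324 array has suffix A. Macrophage and pituitary markers also differed between these arrays. The miRNA, the suffix and the cell types therefore cannot be told apart there. In the suffix B pair, miR-324 2 minus scramble 3 was -0.09 for Col1a2, 0.99 for Col4a1 and 1.07 for Col28a1, with 1 array each and no test.

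Set against each other, in a comparison where scramble does not enter the difference, miR-21 and miR-324 gave the most collagen calls; the cell type markers that differed between them are given below. Col1a1, Col1a2, Col5a1, Col5a2 and Col28a1 were higher with miR-21, 5 of 42 against 1.31% of all probes called higher. The difference was 6.00 ± 0.83 for Col1a2 (SE; 64-fold; limma adjusted p = 0.0052) and 3.73 ± 0.51 for Col5a2 (SE; limma adjusted p = 0.00516). Both passed in all 6 fits without 1 array each. The median difference was 0.70 for fibrillar and -0.03 for basement membrane chains, against 0.05 over all probes. Col4a1 differed by 0.16 ± 0.51 (SE; 95% interval -0.94 to 1.26). Among the arrays without a suffix (3 miR-21 and 2 miR-324) the same 5 genes were called (4.41% of all probes), with 5.50 for Col1a2 and 3.55 for Col5a2 (limma adjusted p = 7.7e-05 and 0.000818). These arrays are part of the same set, so that fit is no independent check. The choice of arrays without a suffix, also used below for miR-34a, was made after the data were seen.

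Between miR-34a and miR-21 no collagen gene passed, against 0.158% of all probes, although all miR-34a arrays were below all miR-21 arrays in 18 of 42, against 10.9% of all probes. Col5a2 differed by -2.47 ± 0.51 and Col1a2 by -3.58 ± 0.83 (SE; limma adjusted p = 0.0932 and 0.125). Among the arrays without a suffix, where miR-34a has the single array 3 and its spread is assumed to be that of the other groups, Col1a1, Col1a2, Col5a2 and Col28a1 were lower with miR-34a (-5.17, -4.19, -2.96 and -1.63; limma adjusted p = 0.00388, 0.00141, 0.00974 and 0.0316; 3.8% of all probes called). Col4a1, Col4a2 and Col18a1 did not pass there, at 0.35, 0.82 and 0.64. Between miR-34a and miR-324 no collagen gene was called (0% of all probes), and 3 had an unadjusted p under 0.05 (Col1a2, Col5a1 and Col5a2, each higher with miR-34a), a smaller share than the 13% of all probes.

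Genes that make, crosslink or bind collagen were read from lists, and their counts with miR-21 stand against 0.685% of all probes called higher and 61.6% with a higher mean. Of 14 fibrillar collagen partners 3 rose with miR-21, namely Prelp, Fmod and Ogn, small proteoglycans of the fibril surface (limma adjusted p = 0.0193, 0.0172 and 0.0312), and the list median was 1.09 against 0.13 over all probes. Of the 14 means 11 were higher and 3 lower, and none was called lower. The lower ones were Lum, Thbs2 and Dcn, a proteoglycan of the fibril surface whose values are given below. Lum had 11.41, 10.57 and 11.44 with miR-21 and 12.27, 12.76 and 13.16 with scramble. Fmod, fibromodulin, had 6.92, 7.11 and 7.94 with miR-21 and 4.56, 4.54 and 4.18 with scramble. Of 15 basement membrane partners 5 rose (Hspg2, Lama2, Agrn, Lamc1 and Lamb1), and the means of all 15 were higher (median 1.00). Lama2, the laminin chain of Schwann cell and muscle basement membranes, had 11.37, 11.61 and 11.40 with miR-21 and 9.19, 9.15 and 7.61 with scramble, a rise of 2.81 ± 0.41 (SE; limma adjusted p = 0.014).

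Of 27 collagen-modifying and secretion genes 1 rose, the crosslinking enzyme Lox (limma adjusted p = 0.0414), and 24 had a higher mean (median 0.67). The collagen chaperone Serpinh1 did not pass (1.43 ± 0.41, SE; limma adjusted p = 0.114). Of 10 collagen receptors and of 15 genes of collagen transcription and TGF-beta input none passed (medians 0.71 and 0.29). With miR-34a and with miR-324 no gene of these lists passed against scramble.

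Several cell type markers moved with the collagen genes, and their counts with miR-21 stand against 0.685% of all probes called higher and 0.358% called lower. A summed signal is the log2 of the list's added linear signals, so its brightest probes weight it most, and the split of the whole list is given beside it. In such bulk samples fewer cells of a type and less RNA per cell cannot be told apart. Of 12 Schwann cell markers, 3 rose with miR-21 (Pmp2, Mbp and Cldn19, genes of compact myelin and its junctions; limma adjusted p = 0.0284, 0.0457 and 0.0172), all 12 means were higher, and the summed signal was 17.69 to 18.002 on miR-21 and 15.71 to 17.11 on scramble arrays (log2). The myelin gene Mag was above the floor on no array. Of 14 fibroblast markers none passed, 6 means were higher and 8 lower, and the median difference was -0.05. The summed signal was 15.02 to 15.56 on miR-21 and 15.86 to 17.21 on scramble arrays, and Dpt, Pi16, Scara5 and Clec3b were above the floor on no array. Postn and Dcn, members of the list, had opposite orders. Postn, periostin, a matrix protein that binds collagen, had 14.78, 14.39 and 14.69 with miR-21 and 12.40, 12.17 and 9.35 with scramble (difference 3.31 ± 0.86, SE; limma adjusted p = 0.0865). As in Col1a2, its miR-21 arrays were above the other 9 and scramble 3 was below scramble 1 and 2. Dcn, decorin, a proteoglycan of the fibril surface, had 13.69, 12.77 and 13.40 with miR-21 and 15.27, 15.52 and 17.02 with scramble (difference -2.65 ± 0.90, SE; limma adjusted p = 0.172).

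Of 13 endothelial markers, 1 fell with miR-21 (Ly6c1, limma adjusted p = 0.00969) and 12 means were lower (median -0.90). The scramble arrays differed among themselves, with list medians of 9.59, 9.98 and 11.92, against 8.42 to 9.57 on the miR-21 arrays. Cdh5 had 12.94, 12.45 and 13.12 with miR-21 and 12.41, 12.28 and 15.59 with scramble. In Ly6c1, by contrast, scramble 3 was the lowest scramble array (9.52). The part of scramble 3 in the lower means was not tested. With miR-324 all 13 means were higher than with scramble and none passed. The summed endothelial signal was 15.69 to 16.34 on miR-21, 15.74 to 18.64 on miR-34a, 17.34 to 19.39 on miR-324 and 15.51 to 16.97 on scramble arrays (log2). Its median was highest on miR-324 1 (13.82) and next on miR-34a 3 (12.85), the arrays with the highest Col4a1, Col4a2 and Col18a1. Of 12 mural cell markers 1 rose with miR-21 (Cspg4, limma adjusted p = 0.0295), while 6 means were higher and 6 lower, with a median difference of -0.04. Their summed signal was 17.33 to 17.36 on miR-21 and 10.90 to 15.30 on scramble arrays, and it is weighted most by the smooth muscle genes Acta2 and Tagln. Tagln had 16.62, 16.61 and 16.52 with miR-21 and 12.94, 12.93 and 6.71 with scramble (limma adjusted p = 0.149). The pericyte gene Rgs5 lay the other way, with 7.23, 6.41 and 6.87 with miR-21 and 8.32, 8.49 and 7.74 with scramble. Of satellite glia (10 genes), macrophage, pan-neuronal and pituitary markers none passed with miR-21. Yet all 14 pan-neuronal means (median -1.425) and all 13 macrophage means (median -1.94) were lower than with scramble. Satellite glia had 4 means higher and 6 lower (median -0.725), and pituitary markers 3 higher and 5 lower (median -0.53). Over all probes the median was 0.13. No gene of the cell type lists passed with miR-34a or miR-324 against scramble. All 14 pan-neuronal means were lower with miR-34a (median -0.97) and with miR-324 (median -1.72). With miR-324 all 13 macrophage means were lower too (median -2.59). Between miR-21 and miR-324, where 5 collagen genes differed, more markers were called, against 1.31% of all probes called higher and 1.14% called lower. Of 13 endothelial markers 7 were lower with miR-21 (Ly6c1, Cldn5, Erg, Tek, Tie1, Kdr and Robo4; limma adjusted p = 0.00287 to 0.0449), and all 13 means were lower (median -3.45). Cldn5, a tight junction gene of vessels, had 5.50, 6.03 and 5.58 with miR-21 and 9.86, 11.98 and 10.88 with miR-324. Of 12 Schwann cell markers 3 were higher (Pmp2, Cldn19 and Pmp22; limma adjusted p = 0.00801, 0.0217 and 0.0169), and all 12 means were higher (median 1.91). Of 14 fibroblast markers Postn was higher (5.39 ± 0.86, SE; limma adjusted p = 0.00915), with 9 means higher and 5 lower (median 0.10).

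Of 12 mural markers Cspg4 was higher with miR-21 than with miR-324 (limma adjusted p = 0.0155), and 9 means were higher. Of 10 satellite glia markers Fbln5 and Ptprz1 were higher and Ednrb and Sparcl1 lower (limma adjusted p = 0.00915 to 0.0313). The pituitary hormone gene Prl was lower, with 3.37, 3.95 and 3.98 with miR-21 and 14.98, 14.26 and 15.17 with miR-324 (limma adjusted p = 0.0186), and the chondrocyte marker Epyc was lower too (limma adjusted p = 0.0472). Of macrophage and pan-neuronal markers none passed in this comparison. With miR-21, 12 macrophage means were higher and 1 lower (median 0.69), and 9 pan-neuronal means were higher and 5 lower (median 0.395). The part of any cell type in the collagen differences was not tested.

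**Figure D5:**
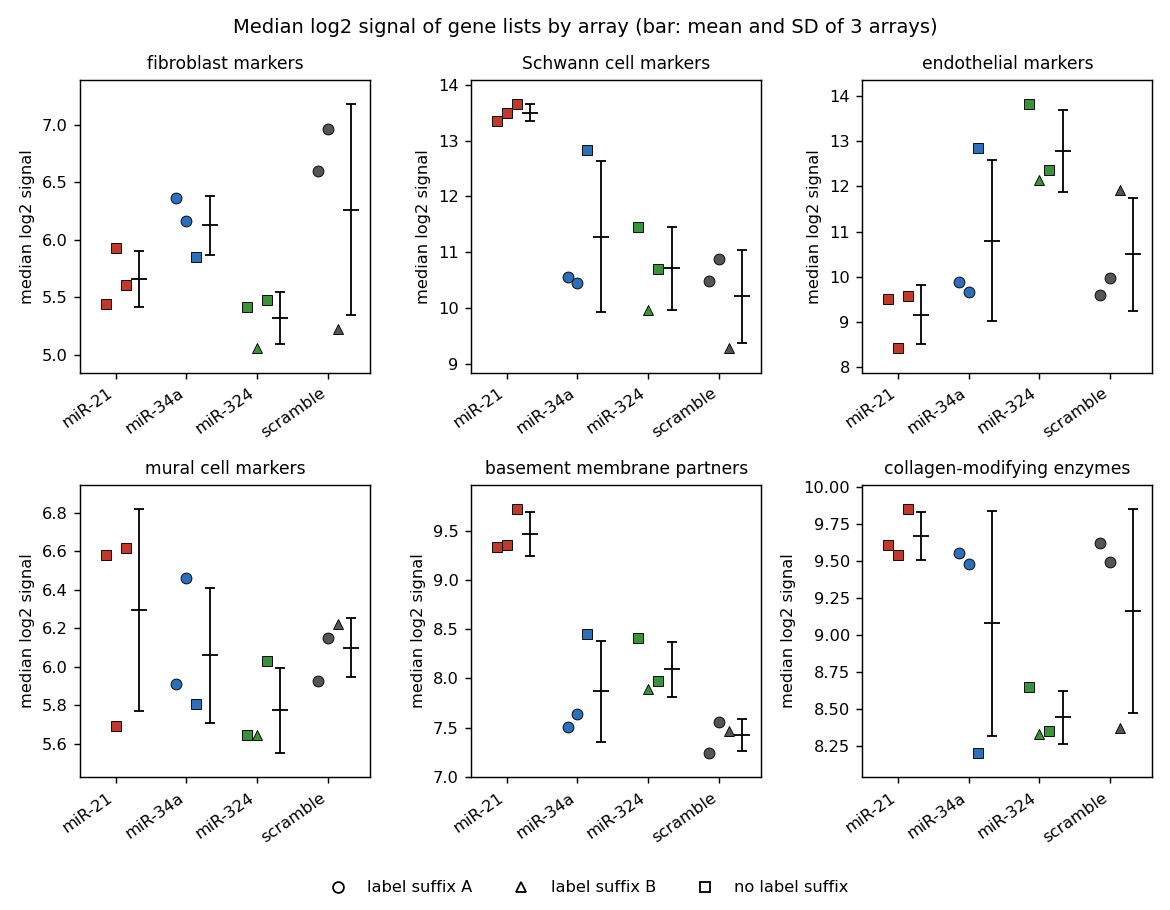
Median log2 signal (vertical axis) of 6 gene lists by group; each symbol is 1 array, its shape gives the label suffix, and the bar beside it is the mean and SD of the 3 arrays. Schwann cell markers (13.36 to 13.66) and basement membrane partners (9.33 to 9.72) are highest on the miR-21 arrays, and endothelial markers (12.15 to 13.82) are high on the miR-324 arrays.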

How the data were processed

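Total RNA was hybridised to Clariom S Mouse arrays, and the deposited table holds log2 signals, for which the submitters' processing notes name RMA and Transcriptome Analysis Console 4.0. RMA sets all arrays to 1 distribution, so a change in total RNA is not seen. Arrays have no read depth, and their number limits the precision. Of 22206 probes 19572 had 1 gene symbol, 2634 were unnamed here and were not tested. All 42 members matched RefSeq (GRCm38.p6) by gene ID.

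A linear model of the 4 group means over 12 arrays was fitted by limma 3.58.1 (R 4.3.3; moderated variances, 8 residual degrees of freedom). Tests were two-sided, adjusted by Benjamini-Hochberg over the 19572 probes and called under 0.05. Every adjusted p is from limma. The steps were tested on simulated data with independent noise on each array. Those data held no difference by suffix, culture or cell type, so the effect of these on the calls was not tested. A floor was set as the 95th percentile of olfactory and vomeronasal receptor probes. Members and lists were chosen with earlier results of these data known. Named by array were the 3 brightest genes of each class, called genes, the largest rise and fall of each class and the type IV pairs. Col28a1 was named as the largest fall of the other chains with miR-324. Col5a1, Col8a1 and Col9a3, which fall under none of these rules, and the promoter windows were added after values were seen. The main fit did not pair arrays by the numbers in the labels. Of 16 pairs of arrays with the same number, 3 correlated above 0.1 (range -0.41 to 0.36). The miR-34a and scramble arrays of suffix A correlated at 0.31 to 0.36 with the same or another number, so this check could not exclude a pairing by number. Alternatives covered normalization, filters, variance model, array weights, label number, suffix and left-out arrays.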

Additional observations from a re-analysis of the deposited data

Results flagged for a closer look

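Between miR-21 and miR-324, 5 collagen genes differed by the test of the difference itself, which does not use the scramble arrays' level. In each of them all 3 miR-21 arrays were above all 3 miR-324 arrays. Col1a2 averaged 15.31 ± 0.19 with miR-21 and 9.31 ± 0.96 with miR-324 (SD, n = 3 each), a difference of 6.00 (limma adjusted p = 0.0052). Col1a1 averaged 12.60 ± 0.93 with miR-21 and 7.93 ± 0.68 with miR-324, a difference of 4.66 (limma adjusted p = 0.0263). For Col5a2 the difference was 3.73 and for Col5a1 2.73 (limma adjusted p = 0.00516 and 0.0123). Col28a1 averaged 8.85 ± 0.10 with miR-21 and 6.35 ± 0.12 with miR-324, a difference of 2.50 (limma adjusted p = 0.0243). In the fits without 1 array, Col1a1 passed only without miR-324 1, Col5a1 only without miR-21 2 or miR-324 1, and Col28a1 in none. Cell type markers differed between the same arrays (limma adjusted p under 0.05): 7 of 13 endothelial genes and Prl were lower with miR-21, and the Schwann cell genes Pmp2, Cldn19 and Pmp22, Postn and Cspg4 were higher. Their part in the collagen differences was not tested.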

How the results depend on the processing

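Between miR-21 and scramble the 2 collagen calls became 16 with array weights (12.2% of all probes were called), 7 with only the compared arrays in the fit (4.63%), 15 when an unadjusted p under 0.05 and a 2-fold difference were asked for (7.25%), 8 when blocked on suffix (3.49%) and 0 with no moderation of variances (0.0869%). Between miR-21 and miR-324 the 5 calls became 8 with array weights (9.14% of all probes) and 0 with no moderation (0.271%). Between miR-34a and miR-21 the count of 0 became 12 with array weights (11% of all probes), 1 with only the compared arrays (0.118%), 8 at the unadjusted threshold (3.72%), 7 with the suffix as a fixed (5.13%) and 1 as a random block (0.204%), and 4 with only arrays without a suffix (3.8%), an alternative chosen after seeing the data. Against scramble miR-324 had 7 calls with array weights (13.2% of all probes) and 3 at the unadjusted threshold (5.87%), and miR-34a against miR-324 had 5 (14.3%) and 3 (4.43%). The share of all probes called thus moved with the setting too. The cause of these changes was not tested. With the number in the label as a replicate block, 0 genes were called in miR-21 against scramble and 0 in miR-21 against miR-324 (0.0102% and 0.118% of all probes), and the other counts stayed at 0. Without 1 array at a time the count was 0 to 2 for miR-21 against scramble, 0 to 3 for miR-324 against scramble, 0 to 1 for miR-34a against miR-21, 2 to 5 for miR-21 against miR-324, and 0 for miR-34a against scramble and against miR-324. Of all recomputed counts 76 stayed within 1.5 times and 30 did not. Of the differences of single genes 35 lost the threshold and 103 gained it. A further 4085 were called in both fits, or were uncalled in both or untested and moved by less than the spread. The other 133, uncalled in both fits or untested, moved by more than the spread. The mean of all probes of a gene gave the same values, as each gene has 1 probe. The number of arrays, and signals at the floor in 13 of the 42 genes, limit what can be seen.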

Other observations

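Neighbouring collagen genes did not share an order of arrays in every case, a pattern chosen after the values were seen and not tested. Col3a1 and Col5a2 lie 24.6 kb apart on chromosome 1. Col5a2 was higher on each miR-21 array (10.94 to 11.92) than on any other array (at most 9.47). Col3a1 was 8.27 to 9.92 on the miR-21 arrays and reached 10.66 on the others. On miR-324 1 and miR-34a 3, Col3a1 had its lowest signals (6.50 and 6.95) where Col4a1, Col4a2 and Col18a1 had their highest.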
